A study of Mus musculus with 8 samples.

Results

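The genes of the cytosolic ribosome were followed through pre-B cells that carried an empty vector, full-length ZNF384 or one of the leukaemia fusions TAF15-ZNF384 and TCF3-ZNF384. The members were taken by symbol: Rpl or Rps with a number and at most 1 of the letters a, x, y or l, together with Rpsa and the P-stalk genes Rplp0, Rplp1 and Rplp2, with processed pseudogenes left out. The rule found 82 genes of 32499 in the count table, 50 of the large subunit and 32 of the small subunit. Of these, 79 passed the filter on low counts, 48 large and 31 small. The other 3 were Rpl10l, with no count in any library, Rpl39l, with 1 count in all, and Rps4l, with 0 to 4 counts per library.

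Each ribosome is built from a small subunit, which reads the messenger RNA, and a large subunit, which joins the amino acids, and each subunit holds ribosomal RNA and a fixed set of proteins made in nearly equal numbers. Most mammalian ribosomal protein messages begin with a 5′ terminal oligopyrimidine (TOP) tract, a C followed by a run of C and T, through which mTORC1 and LARP1 control their translation and stability, and their genes are common targets of MYC. Pre-B cells are dividing B cell precursors, and ribosome production is one of the largest costs of their growth. ZNF384 is a DNA-binding protein with zinc fingers, and in some acute leukaemias its gene is joined to that of TAF15, TCF3 or another partner.

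All cells came from bone marrow of C57BL/6 mice without Arf (Arf-/-), a tumour suppressor product of the Cdkn2a locus, so that the controls lacked it too. Lentivirus delivered HA-tagged ZNF384 (the wild-type protein), TAF15-ZNF384, TCF3-ZNF384 or nothing but the vector, and GFP-positive cells were sorted before RNA was taken. Each of the 4 groups had 2 libraries of total RNA, described as biological replicates, and no promoter or time after transduction is given in the sources used here.

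The start of the transcript is shown for 7 members, since the TOP tract lies there and the members with and without it can be compared with their changes below. The windows are 30 bases centred on the annotated start, from the RefSeq promoters of build GRCm38.p6, and capitals mark a run of at least 5 C and T that opens with C within 5 bases of the start. Rpl35, Rps6 and Rps18 had a tract and were among the members that fell furthest with TCF3-ZNF384, Rps15a had a tract and fell less, and Rps27 had a tract and was the member that rose. Rps28, the member with the largest fall, and Rpl26 had no such run in the window.
Rpl35: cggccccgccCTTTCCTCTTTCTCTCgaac
Rps6: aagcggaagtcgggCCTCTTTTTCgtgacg
Rps18: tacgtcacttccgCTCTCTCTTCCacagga
Rps15a: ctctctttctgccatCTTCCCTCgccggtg
Rps27: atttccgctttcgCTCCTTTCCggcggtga
Rps28: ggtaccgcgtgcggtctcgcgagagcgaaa
Rpl26: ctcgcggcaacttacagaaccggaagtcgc
The windows lie at chr2:39005117-39005146, minus strand (Rpl35), chr4:86857353-86857382, minus strand (Rps6), chr17:33955651-33955680, minus strand (Rps18), chr7:118116133-118116162, minus strand (Rps15a), chr3:90213634-90213663, minus strand (Rps27), chr17:33824548-33824577, minus strand (Rps28) and chr11:68901551-68901580, plus strand (Rpl26). Of the 82 members 60 had a promoter in the table and 22 had none, and 10 of the 60 had more than 1 start. Only the first listed start of each gene was counted in the shares that follow. Some members, such as Rpl35a, had a tract at one start and none at another. The starts are annotated and were not measured in these cells. Members such as Rpl13 and Rps12 had a run of C and T further from the start, which was not counted. A member without a tract by this rule may therefore still have a TOP message. A tract was found in 27 of 60 members (45.0%) and in 18.4% of the 26965 other genes with a promoter. In the whole promoter window of 250 bases before to 50 after the start, on both strands, CCGGAAG, the core of ETS factor sites, was found in 24 of 60 members (40.0%) against 9.05% of other genes. GGGCGG, the SP1 core, was found in 35 (58.3%) against 35.9%, and AAGATGGC, a YY1 core, in 4 (6.67%) against 2.87%. A run of 7 A, AAAAAAA, the class of sequence that ZNF384 is known to bind, was found in 8 members (13.3%) against 11.6% of other genes, and the E-box CACGTG of MYC in 5 (8.33%) against 7.24%. TATAAA was found in 5 members (8.33%) against 14.2%. These matches describe letters in a window and are not measured binding.

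Total counts ran from 9381954 to 41483660 per library, and all 4 fusion libraries, at 9381954 to 17876711, were shallower than the 4 control libraries, at 20298726 to 41483660. A group of 5 abundant non-coding RNAs took 27.2 and 33.2% of the counts with the empty vector, 10.9 and 12.5% with full-length ZNF384, 28.1 and 29.6% in TAF15-ZNF384 cells and 18.5 and 24.5% in TCF3-ZNF384 cells, so values are given as CPM, counts scaled to a common library size. The 9 B lineage markers summed to 3994 to 4412 CPM in every library. Myeloid markers summed to at most 3.11 CPM, stromal markers to at most 3.04 CPM and erythroid and megakaryocyte markers to at most 7.61 CPM. T and NK cell markers summed to 0.642 to 0.887 CPM in the control libraries and 1.66 to 2.37 CPM in the fusion libraries (all 9 markers together, with Cd8a at 0 throughout), and their part in the results was not tested. The part of the lower depth of the fusion libraries was not tested either. In the deposited data 6 column names carry a suffix and those of the empty vector do not, so any separate handling of that group cannot be told apart from the group itself.

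Ribosomal protein genes as a whole were lower in both fusion groups than in either control group. Their summed level was 28999 and 23792 CPM with the empty vector and 27346 and 22611 CPM with full-length ZNF384. It was 15321 and 16208 CPM in TAF15-ZNF384 cells and 14456 and 14419 CPM in TCF3-ZNF384 cells. The groups did not overlap: every fusion library was below every control library, and the means were 0.597 and 0.547 times the empty vector mean for TAF15-ZNF384 and TCF3-ZNF384. As a share of all counts the members took 2.60 and 2.03% with the empty vector, 2.87 and 2.55% with full-length ZNF384, 1.502 and 1.54% in TAF15-ZNF384 cells and 1.64 and 1.498% in TCF3-ZNF384 cells. These sums are dominated by a few genes: 6 members above 700 CPM held 38.8 to 53.2% of the sum in each library. CPM values are relative to the other genes, and in bulk RNA fewer cells of a type and less RNA per cell cannot be told apart.

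**Figure D1:**
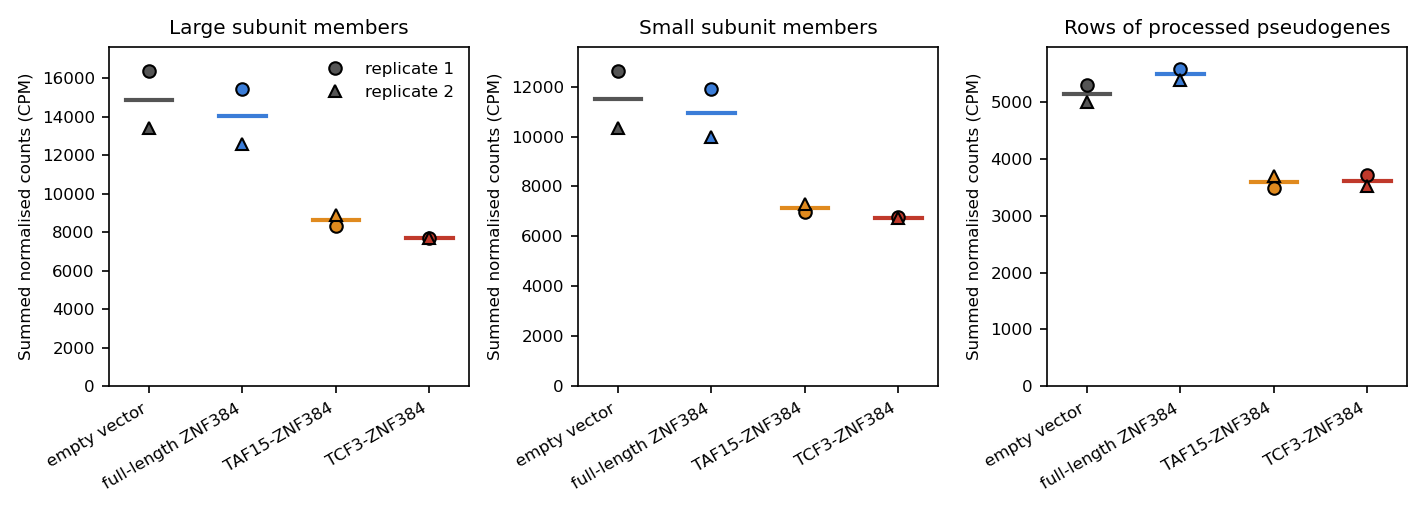
Summed CPM (vertical axis) of the large subunit members, the small subunit members and the rows of ribosomal processed pseudogenes in each of the 8 libraries, by group; circles are replicate 1, triangles replicate 2 and bars the mean of 2. In all 3 panels the 4 fusion libraries lie below the 4 control libraries, and replicate 1 of both control groups lies above replicate 2.

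Gene by gene, 63 of the 79 tested members had every fusion library below every control library, 38 of the large and 25 of the small subunit. That pattern held for 14.7% of all 12970 tested genes. Only Rps27 among the 79 had every fusion library above every control library, a pattern of 11.9% of all tested genes, and in 15 members the libraries overlapped.

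TAF15-ZNF384 cells had less of most ribosomal protein messages than empty vector cells. Of 79 members 48 fell and none rose, at an adjusted p under 0.05 from edgeR's quasi-likelihood test with Benjamini-Hochberg adjustment over all tested genes, while 11% of all tested genes were called, 6.01% lower and 5.01% higher. DESeq2 also called none higher and 57 lower, and at an unadjusted p under 0.05 edgeR had 2 higher and 64 lower. The median log2 fold change of the members was −0.78, beside 0.01 for all tested genes, and 75 of 79 were below 0. Rpsa, Rpl23 and Rplp0 were among the members with the smallest adjusted p.

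Rpsa, the laminin receptor protein of the small subunit (mm9 chr9:120036884-120041487), was at 677 and 539 CPM with the empty vector and 304 and 352 CPM in TAF15-ZNF384 cells. Both fusion libraries lay below both control libraries, and the log2 fold change was −0.89 ± 0.13 (SE, adjusted p = 0.000692). Rpl23 (mm9 chr11:97638841-97643751), a large subunit protein known to bind MDM2, was at 344 and 279.6 CPM against 177 and 183 CPM, a log2 fold change of −0.79 ± 0.13 (adjusted p = 0.00127).

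The members with the largest differences were not those with the smallest p. Rpl9 was at 373 and 252 CPM with the empty vector and 99.1 and 102 CPM in TAF15-ZNF384 cells, a log2 fold change of −1.64 ± 0.39 that missed the threshold (adjusted p = 0.0557) and that was −1.03 ± 0.16 and passed (adjusted p = 0.00205) with its processed pseudogene rows added. Rps28 also missed it, at −1.62 ± 0.39 (adjusted p = 0.0576). In both genes the empty vector replicates differed widely, by 0.57 and 0.58 on the log2 scale, and the fusion replicates did not. The full-length ZNF384 replicates, outside this comparison but in the same fit, differed more, by 1.09 and 1.06. Of the 25 members with a log2 fold change at or below −1, 16 of the large and 9 of the small subunit, 10 did not pass the test. The number called was 5 without TAF15-ZNF384 replicate 1, 20 without replicate 2 and 19 without empty vector replicate 1, all lower.

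TCF3-ZNF384 cells also had less of most ribosomal protein messages than empty vector cells. Of 79 members 68 fell and 1 rose, while 33.3% of all tested genes were called and 17% were called lower. The median log2 fold change was −1.02, beside 0.01 for all tested genes, and 76 of 79 were below 0. The fall was at least 2-fold in 38 of the 68. Without either TCF3-ZNF384 replicate, 45 members were called, all lower.

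Rplp0, the anchor of the P stalk (mm9 chr5:116009476-116013736), had the smallest p, at 470.1 and 413 CPM with the empty vector and 233 and 237 CPM in TCF3-ZNF384 cells. The libraries were well apart, with a log2 change of −0.91 ± 0.10 (adjusted p = 1.7e-05). Rpsa was at 280.0 and 265 CPM in TCF3-ZNF384 cells, a log2 fold change of −1.16 ± 0.13 (adjusted p = 1.79e-05). Rpl12 fell, at −1.02 ± 0.12 (adjusted p = 2.89e-05), and Rpl23 fell, at −1.02 ± 0.13 (adjusted p = 3.75e-05), both large subunit proteins.

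The largest falls that passed the test were in Rps28, Rpl23a and Rpl9. Rps28, a small subunit protein (mm9 chr17:33955972-33961507), was at 168 and 112 CPM with the empty vector and 33.4 and 34.1 CPM in TCF3-ZNF384 cells. All libraries of the groups were apart, although the empty vector libraries themselves differed, and the log2 fold change was −2.05 ± 0.39 (adjusted p = 0.0116). Rpl23a, which lies at the peptide exit tunnel (mm9 chr11:77994434-77997086), was at 443 and 303 against 94.9 and 103 CPM, with −1.92 ± 0.38 (adjusted p = 0.014). Rpl9 was at 82.9 and 83.3 CPM with the fusion, with −1.91 ± 0.39 (adjusted p = 0.0147), and −1.08 ± 0.16 (adjusted p = 0.000382) with processed pseudogene rows added. The gene models of Rps28 and Rpl23a overlap an antisense exon of another gene, Kank3 and Tlcd1, as do those of 12 further members, and whether strand was used in counting is not given in the sources used here.

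With TCF3-ZNF384 10 members did not pass the test. Rps13 and Rps12 had log2 fold changes of −1.97 ± 0.55 and −1.76 ± 0.59 that did not pass (adjusted p = 0.053 and 0.0871). With processed pseudogene rows added, Rps13 was at −0.80 ± 0.12 and passed (adjusted p = 0.000194), and Rps12 was at −1.71 ± 0.59 and did not (adjusted p = 0.0917). Rps12 was at 771 and 249.9 CPM with the empty vector, and Rps13 at 259.8 and 102 CPM. In both, empty vector replicate 1 stood far above replicate 2, by 1.62 and 1.34 on the log2 scale for Rps12 and Rps13. The other 8 were Rpl22, Rpl24, Rpl30, Rpl37, Rpl38, Rpl3l, Rpl6l and Rps27l, with log2 fold changes from −0.30 (Rpl38) to 0.23 (Rps27l).

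**Figure D2:**
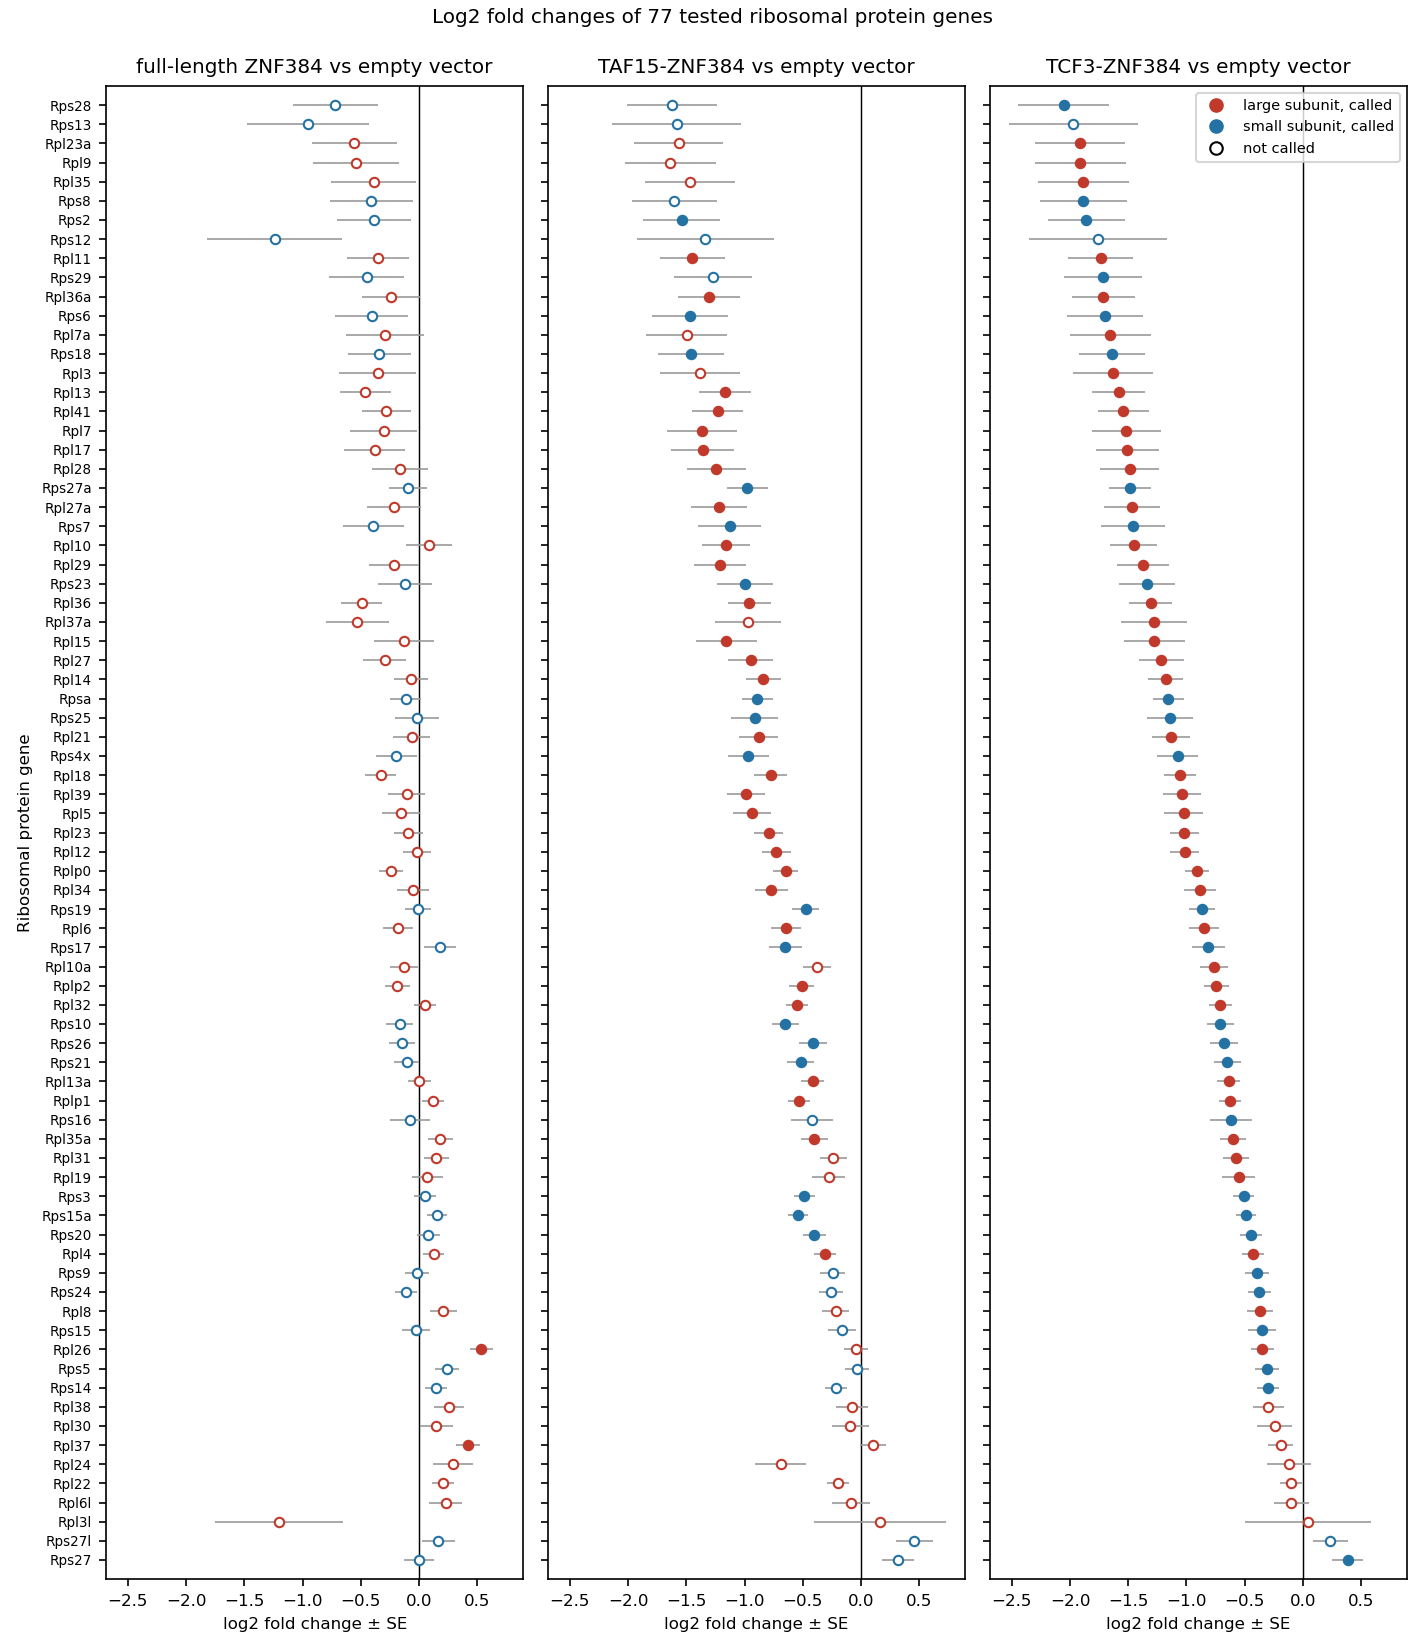
Log2 fold change against the empty vector (horizontal axis, bars ± SE from the edgeR fit) of 77 of the tested members, 1 line per gene in the order of the TCF3-ZNF384 change, for each of the 3 constructs; filled points passed the threshold, red is the large and blue the small subunit. With either fusion most points lie below 0, while with full-length ZNF384 2 of the points shown, Rpl26 and Rpl37, are filled.

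Against full-length ZNF384, the control that carries the zinc fingers without a fusion partner, both fusions again had less. With TAF15-ZNF384 52 members fell and none rose, while 33.3% of all tested genes were called and 17.9% called lower. DESeq2 also called 0 higher and 56 lower, and 2 members were higher at an unadjusted p under 0.05. The median was −0.65, beside −0.02 for all tested genes. The count was 22 without TAF15-ZNF384 replicate 1 and 31 without replicate 2, all lower. With TCF3-ZNF384 71 fell and 1, Rps27, rose, while 45.6% of all tested genes were called and 23.4% called lower, and the median was −0.83 beside 0.00. These comparisons share the fusion libraries with those against the empty vector and are given beside them, not as a further test.

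Rps15a, Rplp1 and Rpl32 were among the members with the smallest p for TAF15-ZNF384, and Rpl26, Rpl12, Rplp1 and Rpsa had the smallest for TCF3-ZNF384. Rps15a, a small subunit protein (mm9 chr7:125247892-125259700), was at 1019 and 972 CPM with full-length ZNF384 and 609.6 and 620.4 CPM in TAF15-ZNF384 cells. All libraries of the fusion lay below both of full-length ZNF384, and the log2 fold change was −0.70 ± 0.09 (adjusted p = 6.89e-05). Rpl26, a large subunit protein that also binds the p53 message (mm9 chr11:68715085-68720491), was at 70.002 and 63.4 CPM with full-length ZNF384, 45.7 and 44.01 CPM in TAF15-ZNF384 cells and 37.6 and 34.9 CPM in TCF3-ZNF384 cells. It fell with TCF3-ZNF384 relative to full-length ZNF384, at −0.88 ± 0.10 (adjusted p = 1.12e-05), the smallest adjusted p of any member in any comparison.

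With full-length ZNF384 3 ribosomal protein genes passed the test against the empty vector. Of 79 members 2 rose and 1 fell, while 20.6% of all tested genes were called, 10.8% higher and 9.87% lower, and the median was −0.11 beside 0.03. Rpl26 rose from 46.96 and 45.1 CPM with the empty vector, a log2 change of 0.54 ± 0.10 (adjusted p = 0.00167). Rpl37, a large subunit protein (mm9 chr15:5066613-5069140), was at 30.6 and 28.5 CPM against 38.9 and 40.2 CPM, and both full-length libraries lay above both control libraries, with 0.42 ± 0.10 (adjusted p = 0.0116). The call of Rpl37 was lost without empty vector replicate 2 (adjusted p = 0.129). The direction of the whole group depended on single libraries: without full-length ZNF384 replicate 1, 25 members were lower and 4 higher, without its replicate 2, 4 were lower and 5 higher, and without empty vector replicate 2, 5 were lower and 1 higher. The median was 0.052 without empty vector replicate 1 and 0.036 without full-length ZNF384 replicate 2.

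Between the fusions 1 member passed the test. Members were lower with TCF3-ZNF384 than with TAF15-ZNF384 in 74 of 79, with a median of −0.23 beside 0.00, while 10.1% of all tested genes were called, 5.91% higher and 4.17% lower. The called member was Rps19, a small subunit protein and the most often mutated gene of Diamond-Blackfan anaemia (mm9 chr7:25669390-25674825), at 262 and 268 CPM in TAF15-ZNF384 cells and 195 and 208 CPM in TCF3-ZNF384 cells. The log2 fold change was −0.39 ± 0.11 (adjusted p = 0.0434), and the call was lost without either library of the empty vector, TAF15-ZNF384 or TCF3-ZNF384, which left 0 members called; without either full-length ZNF384 library 9 were called, all lower. A fit of these 2 groups alone called 37 members lower. At an unadjusted p under 0.05, 12 were lower and 1 higher in the fit of all groups, and DESeq2 called 2 lower.

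Members of both subunits were lower in the fusions, and the difference between the subunits was not tested gene by gene. Counts by subunit and by list were made on all 8 libraries and not repeated with 1 left out. With TAF15-ZNF384, 30 of 48 large and 18 of 31 small subunit members fell against the empty vector, with medians of −0.82 and −0.65. With TCF3-ZNF384, 41 of 48 and 27 of 31 fell, with medians of −1.02 and −0.81. A fall of at least 2-fold in the fitted value was found for 26 large and 14 small subunit members with TCF3-ZNF384. With full-length ZNF384 the 3 called members were all of the large subunit, and 0 of 31 small subunit members were called by edgeR or DESeq2, with 1 at an unadjusted p under 0.05.

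The summed level of large over small subunit members gives a ratio within each library that no scaling between libraries can change. It was 1.29 and 1.30 with the empty vector, 1.30 and 1.26 with full-length ZNF384, 1.19 and 1.22 in TAF15-ZNF384 cells and 1.13 and 1.14 in TCF3-ZNF384 cells. Every fusion library was below every control library, and both TCF3-ZNF384 libraries were below both TAF15-ZNF384 libraries. Taken instead from the mean log2 level of each subunit, in which each member counts once, the group ratios were 0.812 for the empty vector, 0.826 for full-length ZNF384, 0.779 for TAF15-ZNF384 and 0.780 for TCF3-ZNF384. The fusions were again below the controls, but TCF3-ZNF384 was no longer below TAF15-ZNF384. A two-sided exact permutation test of the summed ratio gave p = 0.333 for TAF15-ZNF384 and for TCF3-ZNF384 against the empty vector, the smallest p that 2 libraries against 2 can give.

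By role, the P stalk, the flexible arm of the large subunit that recruits translation factors, was lower in the fusions. All 3 genes fell with each fusion against each control. Rplp1, the most abundant member per length of transcript (mm9 chr9:61761091-61762345), was at 4242 and 4033 CPM with the empty vector, 4498 and 4513 with full-length ZNF384, 2714 and 3008 in TAF15-ZNF384 cells and 2715 and 2649 in TCF3-ZNF384 cells. The fusion libraries formed one level and the controls another, with log2 fold changes of −0.53 ± 0.10 (adjusted p = 0.00276) and −0.63 ± 0.10 (adjusted p = 0.000202) against the empty vector. Its partner Rplp2 fell by −0.51 ± 0.11 and −0.74 ± 0.11 (adjusted p = 0.00821 and 0.000136).

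The 5S particle, in which Rpl5 and Rpl11 carry 5S ribosomal RNA and, when unassembled, bind MDM2, was lower as well. Rpl11 (mm9 chr4:135584180-135609343) was at 269 and 185 CPM with the empty vector, 224 and 130.4 with full-length ZNF384, 79.6 and 86.8 in TAF15-ZNF384 cells and 67.6 and 68.6 in TCF3-ZNF384 cells. Both fusions were far below the controls, with log2 fold changes of −1.45 ± 0.28 and −1.74 ± 0.28 (adjusted p = 0.022 and 0.0036) against the empty vector. Rpl5 (mm9 chr5:108329521-108338024) was at 398 and 304, 370.4 and 259.8, 174 and 193 and 174 and 171 CPM in the same order of groups. It fell by −0.94 ± 0.17 and −1.02 ± 0.17 (adjusted p = 0.00466 and 0.000765), less than Rpl11 in both fusions by the fitted value; the difference between the genes was not tested.

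Diamond-Blackfan anaemia is an inherited failure of red cell production caused mostly by mutations in ribosomal protein genes. A list of 13 such genes, which is not complete and leaves out Rps27 among others, was taken. Of these, 9 fell with TAF15-ZNF384 and 13 with TCF3-ZNF384 against the empty vector, with medians of −0.65 and −0.87. The called shares were 69.2% and 100%, beside 60.8% and 87.3% of all tested members and 11% and 33.3% of all tested genes. The medians of all tested members were −0.78 and −1.02, so the list was not set apart by larger falls. With full-length ZNF384 1, Rpl26, rose, 7.69% of the list beside 20.6% of all tested genes called. Rps19 was at 396 and 340.4 CPM with the empty vector and 402 and 331 CPM with full-length ZNF384, and fell by −0.48 ± 0.11 and −0.87 ± 0.11 (adjusted p = 0.0157 and 5.45e-05). The smallest falls of the list with TCF3-ZNF384 were those of Rpl26 (−0.35 ± 0.10, adjusted p = 0.0173) and Rps24 (−0.37 ± 0.10, adjusted p = 0.0105).

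Some ribosomal proteins are made as fusions with ubiquitin or a ubiquitin-like protein. Rps27a, which carries ubiquitin (mm9 chr11:29445846-29448109) was at 56.5 and 46.01 CPM with the empty vector, 23.6 and 28.6 in TAF15-ZNF384 cells and 17.6 and 18.95 in TCF3-ZNF384 cells, and fell by −0.97 ± 0.18 and −1.48 ± 0.18 (adjusted p = 0.00481 and 6.57e-05). Fau, which encodes a ubiquitin-like protein with a small subunit protein and lies outside the symbol rule, had −0.03 and −0.40 and passed neither test. Of the 6 ribosomal genes outside the rule that were tested, Rpl36al and Rpl22l1 fell with TCF3-ZNF384, at −0.58 ± 0.12 and −0.56 ± 0.15 (adjusted p = 0.00281 and 0.0106).

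Rps27 and its paralogue Rps27l were the only tested members above 0 in all 3 comparisons with the empty vector. Rps27, a zinc finger protein of the small subunit (mm9 chr3:90016593-90017573), was at 13.5 and 14.3 CPM with the empty vector, 13.6 and 14.2 with full-length ZNF384, 15.1 and 19.5 in TAF15-ZNF384 cells and 18.1 and 18.04 in TCF3-ZNF384 cells. The fusion libraries were the higher ones, by a narrow margin at a low level, and the rise with TCF3-ZNF384 was 0.38 ± 0.13 (adjusted p = 0.0398). It was lost with DESeq2 (adjusted p = 0.118), with no filter (adjusted p = 0.0506) and without any 1 of the 4 libraries compared (adjusted p 0.104 to 0.191). Against full-length ZNF384 the rise was 0.38 ± 0.13 (adjusted p = 0.0295), and it was lost with DESeq2 (adjusted p = 0.082) and without full-length ZNF384 replicate 1 or either TCF3-ZNF384 library (adjusted p 0.0781 to 0.116). Rps27l, a target of p53 (mm9 chr9:66793893-66797323), was at 9.81 and 12.1, 13.4 and 11.01, 15.004 and 15.1 and 12.9 and 12.9 CPM. Its log2 fold changes of 0.46 ± 0.16 and 0.23 ± 0.15 did not pass (adjusted p = 0.0733 and 0.256). Rpl3l, the muscle form of Rpl3, was at 0.413 to 3.39 CPM and passed in no comparison.

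Per kilobase of transcript, levels of the 77 tested members with an annotated length ran from 1.04 to 7165 CPM per kb with a median of 203. Rplp1 stood highest at 7165 CPM per kb and Rpl32 at 1708, and Rpl24, Rpl3l and Rpl30 at 1.04, 1.80 and 19.3. The part of read assignment among gene copies in this spread was not tested. Lengths were those of the annotated transcript with the longest coding region. For Rpl24 that transcript had 4999 bases, 3153 of them coding, so its place as the lowest rests on this model. Other transcripts of Rpl24 were not tried. Rpl32, a large subunit protein (mm9 chr6:115755523-115758765), was at 1137 and 984 CPM with the empty vector, 1074 and 1121 with full-length ZNF384, 711 and 737 in TAF15-ZNF384 cells and 648 and 649.7 in TCF3-ZNF384 cells. The fusion libraries lay below all 4 control libraries, and it fell by −0.55 ± 0.10 and −0.71 ± 0.10 against the empty vector (adjusted p = 0.00254 and 8.39e-05). All 6 members above 700 CPM fell with both fusions against the empty vector. Rps20 fell by −0.40 ± 0.10 and −0.45 ± 0.10, and Rps3, a small subunit protein that also acts in DNA repair, by −0.49 ± 0.09 and −0.51 ± 0.09.

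**Figure D3:**
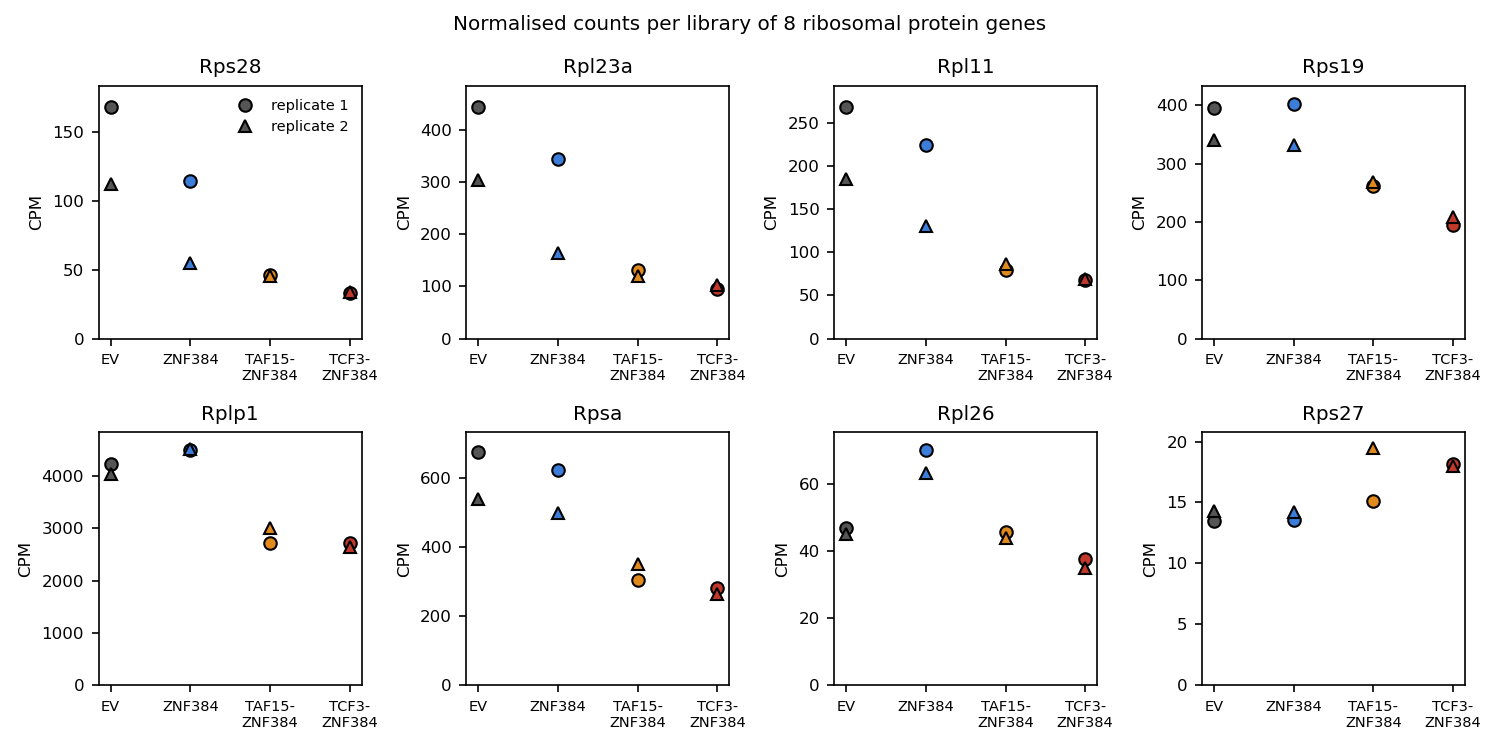
Normalised counts (CPM, vertical axis from 0) of 8 members in each library, by group; circles are replicate 1 and triangles replicate 2. Rps28, Rpl23a and Rpl11 show a gap between the replicates of both control groups, Rplp1 shows none of that size, Rpsa is lower in all 4 fusion libraries, Rpl26 is highest with full-length ZNF384 and Rps27 is highest in the fusions.

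The replicates of the controls differed along the same genes. Empty vector replicate 1 exceeded replicate 2 by a median log2 difference of 0.33 over the members, and full-length ZNF384 replicate 1 exceeded its replicate 2 by 0.33, where the medians over all tested genes were 0.02 and 0.00. In the fusions the members' medians were −0.07 and −0.02. Among the 40 members with a log2 fold change at or below −1 in TCF3-ZNF384 cells the replicate difference had a median of 0.45 with the empty vector and 0.70 with full-length ZNF384. Among the 20 members above −0.5 it was 0.07 and −0.06. Rpl23a shows the pattern in 1 gene: it was at 443 and 303 CPM with the empty vector, 344 and 163 with full-length ZNF384, 132 and 121 in TAF15-ZNF384 cells and 94.9 and 103 in TCF3-ZNF384 cells, so that full-length ZNF384 replicate 2 lay nearer the fusions than its own replicate.

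Across the 79 members, the difference between the full-length ZNF384 replicates, which take no part in the contrast, went with the change in TCF3-ZNF384 against the empty vector (Pearson r = −0.81, Spearman rho = −0.89) and in TAF15-ZNF384 against the empty vector (r = −0.82, rho = −0.92). The replicate differences of the 2 control groups went together as well (r = 0.56, rho = 0.81). These correlations are across genes, which share the libraries and are not independent, and they are given as a description. The change with TCF3-ZNF384 showed no such relation to exon length (r = −0.04), GC content (r = −0.04, both over 77 members) or mean level (r = −0.29). What set the control replicates apart was not tested.

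**Figure D4:**
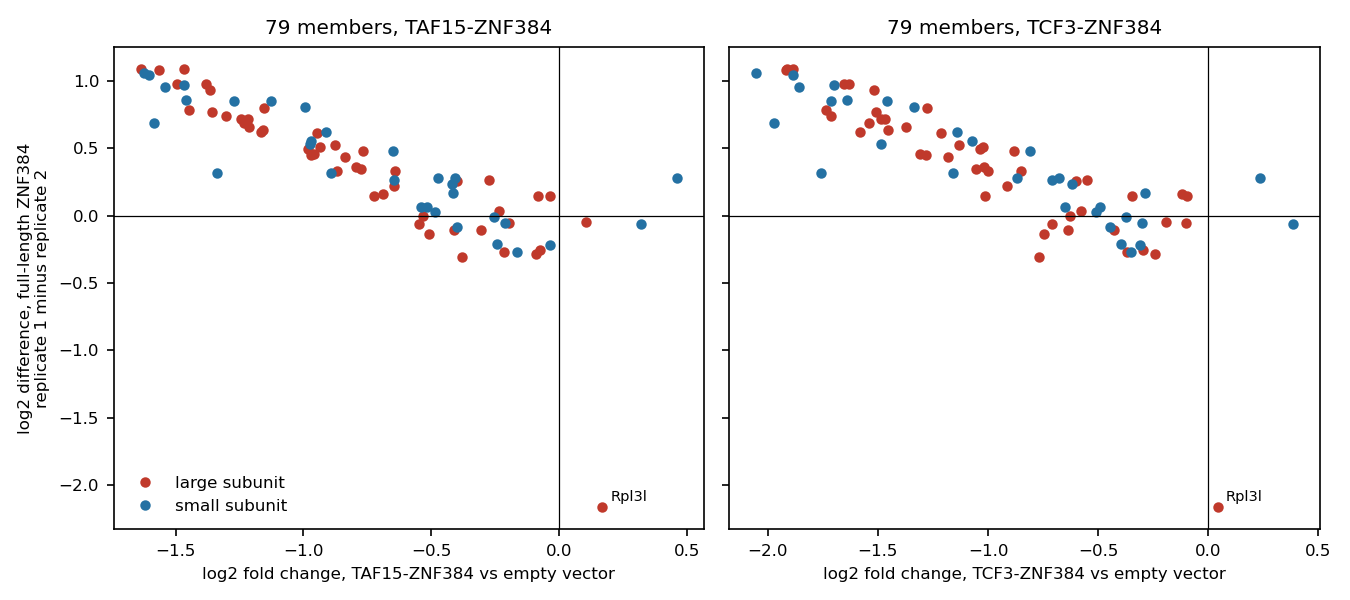
Log2 difference of full-length ZNF384 replicate 1 and 2 (vertical axis) against the log2 fold change of TAF15-ZNF384 (left) or TCF3-ZNF384 (right) over the empty vector (horizontal axis), 1 point per tested member, red for the large and blue for the small subunit. Members that were lowest in the fusions had the largest replicate difference, up to 1.09, and Rpl3l, at 0.413 CPM in 1 of these libraries, lies apart.

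Ribosomal protein genes have many processed copies in the mouse genome, and reads can be split between a gene and its copies. The table held 268 rows of ribosomal symbols with the suffix -ps, of which 83 had no count and 70 passed the filter, and 57 members had at least 1 such row. The -ps rows summed to 5308 and 4997 CPM with the empty vector, 5584 and 5399 with full-length ZNF384, 3485 and 3709 in TAF15-ZNF384 cells and 3711 and 3523 in TCF3-ZNF384 cells. The fusion libraries were below the control libraries here too, at 0.698 and 0.702 times the empty vector mean, and the control replicates were closer together than for the genes themselves. Against the empty vector, 17 of the 70 rows fell and 3 rose with TAF15-ZNF384, and 23 fell and 1 rose with TCF3-ZNF384. Of all tested genes 11% and 33.3% were called, 6.01% and 17% lower. The medians of the rows were −0.04 and −0.24, with 37 and 45 of 70 below 0. The lower sums therefore do not describe every row.

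For 11 members more counts lay on -ps rows than on the gene. Rps6, the small subunit protein phosphorylated by S6 kinase (mm9 chr4:86500564-86503316), was at 605 and 445 CPM with the empty vector, 523 and 268 with full-length ZNF384, 185 and 194 in TAF15-ZNF384 cells and 158 and 165 in TCF3-ZNF384 cells. Its copy Rps6-ps4 was at 469 and 455, 499 and 489, 336 and 348, and 375 and 337 CPM, without the gap between control replicates. Rps6 fell by −1.47 ± 0.33 and −1.70 ± 0.33 (adjusted p = 0.0435 and 0.0106) and its copy by −0.43 ± 0.09 and −0.38 ± 0.09 (adjusted p = 0.00888 and 0.00685), and with the rows added together the falls were −0.89 ± 0.13 and −0.93 ± 0.13 (adjusted p = 0.000681 and 0.000113).

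Rpl10a (mm9 chr17:28465416-28467977), a large subunit protein, had most of its counts on the copy, at 144 and 129 CPM with the empty vector beside 1019.7 and 961 CPM on Rpl10a-ps1. The copy was at 566 and 653 CPM in TAF15-ZNF384 cells and 620.1 and 547 CPM in TCF3-ZNF384 cells, and it fell by −0.70 ± 0.10 and −0.76 ± 0.10 (adjusted p = 0.000665 and 7.52e-05). Over the 11 members, the median log2 fold change with TCF3-ZNF384 was −0.77 on their own rows, with a range of −1.97 to −0.30, and −0.71 with the -ps rows added, with a range of −0.93 to −0.44. With -ps rows added for every member, 58 members were lower with TAF15-ZNF384 and 69 lower and 1 higher with TCF3-ZNF384 against the empty vector. Of the 56 tested members with -ps rows, 10 gained a call with TAF15-ZNF384 and none lost one, and with TCF3-ZNF384 2 gained one and 1, Rps16, lost it. The change against the empty vector moved by more than 1.5 times for Rps13, Rpl9 and Rpl36a with TAF15-ZNF384, and for these and Rps6 and Rpl3 with TCF3-ZNF384. Rps13 went from −1.58 to −0.75 with TAF15-ZNF384 (adjusted p = 0.00137 with the rows added).

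**Figure D5:**
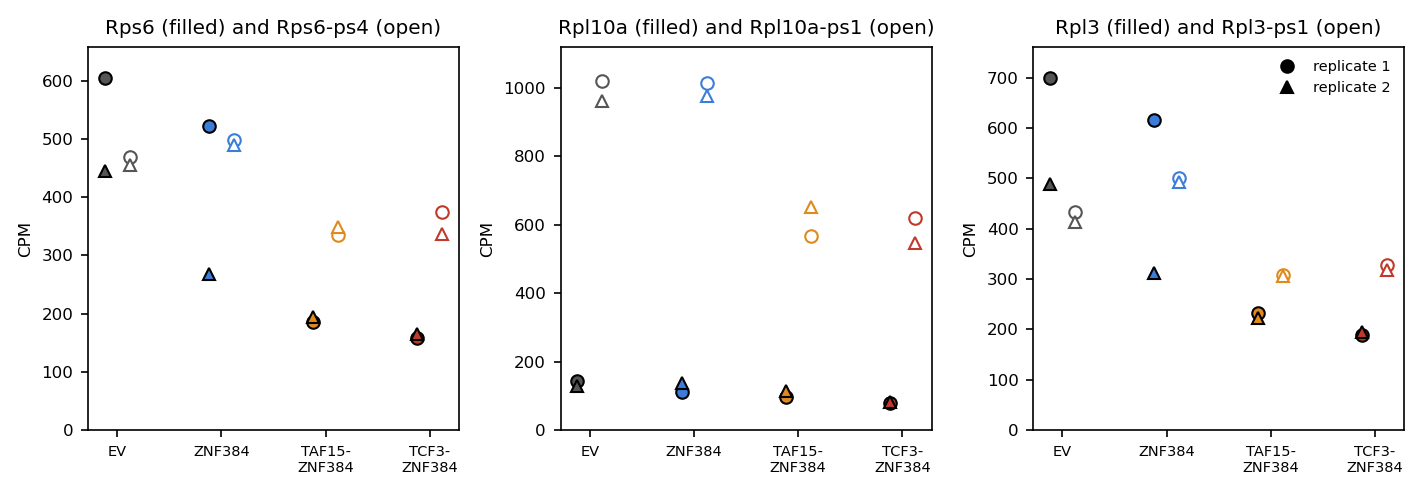
Normalised counts (CPM, vertical axis) in each library of Rps6, Rpl10a and Rpl3 (filled) and of their -ps rows Rps6-ps4, Rpl10a-ps1 and Rpl3-ps1 (open); circles are replicate 1 and triangles replicate 2. The gap between control replicates of Rps6 and Rpl3 is not seen on their -ps rows, and all 3 -ps rows are lower in the 4 fusion libraries than in the 4 control libraries.

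The changes can be set beside the sequence features shown above, counted at the first listed start, as a description. Members counted as without a tract lack one only by the rule on the annotated start. With TCF3-ZNF384 against the empty vector the median log2 fold change was −0.88 over the 27 members with a tract and −1.02 over the 31 tested members without, and −1.04 over 23 with CCGGAAG and −1.02 over 35 without. Members with AAAAAAA had −0.64 (8 members) against −1.03 (50 members). The 29 members with a small nucleolar RNA gene inside the gene had a median of −1.02 and 25 fell, beside −0.88 and 42 of 48 without one. With TAF15-ZNF384 the medians were −0.88 (20 of 29 fell) and −0.67 (27 of 48).

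Some translation factors and related genes were also lower in the fusions. Of 20 translation factors and related genes known for TOP messages, 8 fell with TAF15-ZNF384 and 10 with TCF3-ZNF384, with medians of −0.30 and −0.29, and 4 rose with full-length ZNF384. The called shares of the list were 40% and 50% with the fusions, beside 11% and 33.3% of all tested genes. With full-length ZNF384 the share was 20%, near the 20.6% of all tested genes. Eef1a1, the elongation factor that delivers transfer RNA, was at 1558 and 1265 CPM with the empty vector, 1613 and 1197 with full-length ZNF384, 753 and 816 in TAF15-ZNF384 cells and 773 and 737 in TCF3-ZNF384 cells. Control and fusion libraries did not overlap, and it fell by −0.85 ± 0.14 and −0.90 ± 0.14 (adjusted p = 0.00154 and 0.000233). Of 76 mitochondrial ribosomal protein genes 3 fell with TAF15-ZNF384, and 23 fell and 1 rose with TCF3-ZNF384, with medians of −0.16 and −0.24. The called shares in either direction, 3.95% and 31.6%, were below those of all tested genes, 11% and 33.3%. Of all tested genes 6.01% and 17% were called lower. The lower calls among the 76 were thus a smaller share with TAF15-ZNF384 and a larger one with TCF3-ZNF384. Below 0 were 57 and 63 of the 76.

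Many genes of ribosome assembly and RNA polymerase I were lower with TCF3-ZNF384. Of 30, 5 fell with TAF15-ZNF384 and 24 fell and 1 rose with TCF3-ZNF384, with medians of −0.31 and −0.55, while 7 rose with full-length ZNF384, at a median of 0.16. The called shares were 16.7%, 83.3% and 23.3%, beside 11%, 33.3% and 20.6% of all tested genes. Between the fusions 4 were lower and 1 higher with TCF3-ZNF384, 16.7% of the list beside 10.1% of all tested genes. Nop2, a methyltransferase of 28S ribosomal RNA, fell by −0.93 ± 0.14 in TCF3-ZNF384 cells (adjusted p = 0.000239). Ubtf, the RNA polymerase I activator, was the one that rose, from 49.6 and 52.3 CPM with the empty vector to 81.9 and 84.96 CPM in TCF3-ZNF384 cells, by 0.71 ± 0.09 (adjusted p = 5.67e-05).

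Among 15 tested genes of MYC and mTORC1, 5 fell and 2 rose with TAF15-ZNF384, and 5 fell and 3 rose with TCF3-ZNF384, against the empty vector. The called shares were 46.7% and 53.3%, beside 11% and 33.3% of all tested genes, and genes moved in both directions. Myc was at 87.7 and 78.7 CPM with the empty vector, 123 and 115 with full-length ZNF384, 60.5 and 59.03 in TAF15-ZNF384 cells and 54.9 and 49.97 in TCF3-ZNF384 cells. It rose with full-length ZNF384 (0.52 ± 0.10, adjusted p = 0.00235) and fell with TAF15-ZNF384 (−0.48 ± 0.10, adjusted p = 0.00906) and TCF3-ZNF384 (−0.67 ± 0.10, adjusted p = 0.000205). Mycn fell with both fusions, by −0.43 ± 0.12 and −1.32 ± 0.12 (adjusted p = 0.0313 and 1.63e-06). Of the mTORC1 pathway, Mtor, its kinase, rose by 0.69 ± 0.10 and 0.72 ± 0.10 (adjusted p = 0.000813 and 0.000136). Eif4ebp1, the translation repressor that mTORC1 switches off, fell with all 3 constructs, by −0.78 ± 0.10, −0.84 ± 0.10 and −1.65 ± 0.10 (adjusted p = 0.000125, 0.000142 and 5.51e-08). Their part in the levels of ribosomal protein genes was not tested.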

How the data were processed

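The authors deposited 1 table of read counts per gene, raw counts made with HTSeq 0.6.1p1 on build mm9, per the submitters' processing notes. The aligner and strand setting are not given in the sources used here. Libraries were stranded total RNA, per the labels' protocols. Genes were filtered by edgeR 4.0.16 (filterByExpr) in R 4.3.3, which left 12970, and scaled by TMM. A robust quasi-likelihood model with 1 term per group was fitted to the 8 libraries (4 residual degrees of freedom, biological coefficient of variation 0.0958), with Benjamini-Hochberg adjustment across the tested genes and a threshold of 0.05. CPM values use the TMM-scaled totals. The test was tried on simulated counts in which genes varied independently and with the same spread. That setting had no replicate difference shared by the members, so it does not cover the one seen in the controls. Alternatives were DESeq2 1.42.0, other scalings and filters, a fit of 2 groups, a replicate block, a length and GC correction, and leaving out each library. Adding -ps rows was chosen after seeing the data. Replicates are biological per the series design. The p-values rest on the spread between the 2 libraries of each group, pooled over the 4 groups and in part over genes. A p-value for 2 groups therefore also carries the spread of the groups not compared.

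The members and lists were chosen with earlier results of these data known. Genes named were, per comparison, the 4 members of smallest adjusted p that rose, the 4 that fell and the 2 uncalled ones with the largest change, the extremes of level per kb, and short lists by role. Rpl3, Rpl9, Rpl10a, Rpl23a, Rpl35, Rps18, Rps20 and the list of members not called were picked after their values were seen. Annotation is GENCODE vM1 (NCBIM37, mm9), matched by symbol for 79 of 82 members, and promoters are RefSeq's. Motifs were counted on both strands, the tract on the sense strand only. The values of some genes are not reported here.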

Additional observations from a re-analysis of the deposited data

How the results depend on the processing

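With full-length ZNF384 against the empty vector, 6 members were called with total-count scaling without the 5 non-coding RNAs, 7 with no filter, and 2 to 29 when 1 library was left out. Their median log2 fold change ran from −0.33 to 0.052 with 1 library left out, and reversed to 0.052 without empty vector replicate 1 and to 0.036 without full-length ZNF384 replicate 2. Between the fusions, 2 were called with DESeq2 size factors, 2 with the DESeq2 test, 4 with no filter, 37 in a fit of the 2 groups, and 0 to 9 with 1 library left out. Leaving out 1 library gave 5 to 59 called members for TAF15-ZNF384 and 45 to 68 for TCF3-ZNF384 against the empty vector, and 22 to 61 and 49 to 73 against full-length ZNF384. A group left with 1 library is assumed to vary like the others. Total-count scaling moved the median of all genes to 0.12, 0.15, 0.12 and 0.17 in these 4 comparisons, with 47, 60, 42 and 65 members lower.

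Without the 5 non-coding RNAs in the total, members took 3.31% of counts in empty vector cells, 3.07% with full-length ZNF384, 2.14% in TAF15-ZNF384 cells and 2.00% in TCF3-ZNF384 cells. The large to small ratio from mean log2 values was 0.812, 0.826, 0.779 and 0.780 in that order.

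With the replicate number as a block, 3 members were called for full-length ZNF384, 59 for TAF15-ZNF384 and 69 for TCF3-ZNF384 against the empty vector, 61 and 74 for the fusions against full-length ZNF384, and 2 between the fusions. Over all 12970 tested genes, same-numbered libraries correlated at 0.014 to 0.22 in their deviations from the group means, so the numbers were not taken as a pairing. Over the 79 members alone, the replicate differences of the empty vector and full-length ZNF384 went together (r = 0.56, rho = 0.81). A pairing of these 2 groups in the members is therefore not excluded. The numbers are those of the titles. In 6 column names a suffix also gives a number, the same as the title's for replicate 2 and a different one for replicate 1. This held in each of their 3 groups. The empty vector columns carry none, so the empty vector is tied to the other groups by its titles alone.

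The main limits are 2 libraries a group, shallower fusion libraries, control replicates that differ in these same genes, reads shared with pseudogene copies, and an unknown strand setting.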
